A study of Mus musculus with 4 samples.

Results

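Cones whose opsin transcripts were mostly medium-wave opsin numbered 607 of 26543 retinal cells in 4 single-cell RNA libraries of Abca4-/-Rdh8-/- mice on C57BL/6J. A cell counted as a cone when at least 4 of the 8 cone genes Arr3, Gnat2, Pde6c, Pde6h, Gngt2, Cngb3, Gnb3 and Kcne2 were seen and the rod genes Nr2e3, Pde6a and Cnga1 summed to under 20 per 10000 transcripts. A transcript is counted as a unique molecular identifier (UMI). Of 2098 cells that passed, 712 had no opsin UMI, 779 had an Opn1mw share of opsin UMIs under 0.5 and are called short-wave cones here, and 607 had a share of 0.5 or more and are called medium-wave cones. The medium-wave cones thus include cells with both opsins.

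All mice lacked Abca4, a transporter, and Rdh8, a dehydrogenase, which together clear all-trans-retinal from photoreceptor outer segments, and they were 6 weeks old. Unbleached vehicle mice received DMSO, and whether they were dark-adapted or had their pupils dilated is not recorded. Bleached vehicle mice were dark-adapted for 24 h, given 1% tropicamide, injected with DMSO 30 min before light and exposed to 10000 lux of white light for 30 min. The other bleached groups received 2 mg/kg rolipram, an inhibitor of phosphodiesterase 4, or BC11-38, an inhibitor of phosphodiesterase 11, in DMSO in place of vehicle alone. Bleached retinae were taken 1 day after light. Each group was 1 library from 4 pooled retinae of 2 mice, so no difference between conditions has a replicate. The design asks what bright light changes and where each inhibitor leaves it. Values for the 4 libraries are given below in the order unbleached vehicle, bleached vehicle, rolipram, BC11-38.

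Cones carry daylight and colour vision. In the mouse, Opn1mw encodes the opsin most sensitive to green light and Opn1sw the opsin most sensitive to ultraviolet light. Many mouse cones express both, with medium-wave opsin favoured in the dorsal retina and short-wave opsin in the ventral retina, and the thyroid hormone receptor Thrb is required for medium-wave opsin. After light, opsin activates the cone transducin Gnat2, which activates the phosphodiesterase Pde6c held back by its inhibitory subunit Pde6h. The fall in cyclic GMP closes channels that contain Cngb3, and cone arrestin, Arr3, ends the opsin's activity.

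The start regions of the 2 opsin genes are shown because the share of their transcripts chose the cells. Each line holds the 250 bases before the gene's start, 5′ to 3′ on the gene's strand, from RefSeq on GRCm38.p6. Opn1mw lies on the plus strand with its window at chrX:74127216-74127465, and Opn1sw on the minus strand at chr6:29380514-29380763. Capitals mark AGGTCA or, for the other strand, TGACCT, a hexamer bound by many nuclear receptors, the family of Thrb.

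Opn1mw: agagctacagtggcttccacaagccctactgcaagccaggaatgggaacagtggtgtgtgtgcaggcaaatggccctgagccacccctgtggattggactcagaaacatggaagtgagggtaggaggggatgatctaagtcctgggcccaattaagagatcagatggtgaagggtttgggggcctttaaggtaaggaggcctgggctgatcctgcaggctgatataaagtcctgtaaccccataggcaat

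Opn1sw: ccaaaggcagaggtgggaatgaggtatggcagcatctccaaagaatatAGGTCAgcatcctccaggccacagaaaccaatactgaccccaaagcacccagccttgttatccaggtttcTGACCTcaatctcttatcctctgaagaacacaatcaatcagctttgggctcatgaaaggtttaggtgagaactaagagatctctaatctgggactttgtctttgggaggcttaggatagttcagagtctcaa

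The Opn1sw window held the hexamer 2 times and the Opn1mw window did not hold it. Of 32851 promoter windows of the same length, 14.02% held it at least once and 1.358% at least 2 times. TAATCC or GGATTA, a homeodomain hexamer, was in neither opsin window and in 6.252% of all windows. These are matches of letters, not sites of binding.

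Medium-wave cones numbered 128, 151, 187 and 141 in the 4 libraries. These were 2.25%, 2.22%, 2.37% and 2.30% of the cells of each library. Among cones with an opsin UMI, the medium-wave share was 46.0% (exact 95% binomial interval 40.1 to 52.1), 54.3% (48.3 to 60.3), 43.2% (38.5 to 48.0) and 35.5% (30.8 to 40.4). The share was highest in bleached vehicle and lowest in BC11-38, and the intervals of these 2 libraries did not overlap. All intervals here cover counting error only, not the spread between mice or dissociations. Medium-wave cones had a median of 7961.5, 6592, 4813 and 6419 UMIs.

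The marker genes of the label, which the rule itself used, were all present. Opn1mw stood at 5430, 3034, 7478 and 7318 UMIs per 1000000 UMIs of the class (CPM) in medium-wave cones. Arr3 stood at 3536, 2054, 4601 and 5887 CPM and Gnat2 at 1562, 777, 2449 and 2905 CPM. Pde6h stood at 12090, 9325, 13166 and 15789 CPM. All 4 were lowest in bleached vehicle. Cells with rod genes, which should lack Opn1mw, had an Opn1mw UMI in 2.33%, 1.06%, 2.59% and 4.52% of cells, at median depths of 1549.5, 1409, 1235 and 1437.5 UMIs. Medium-wave cones held 67.2%, 76.1%, 68.0% and 58.9% of all Opn1mw UMIs of their libraries.

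Opn1mw UMIs per medium-wave cone ran from 1 to 105 with a median of 43 in unbleached vehicle. In bleached vehicle they ran from 1 to 133 with a median of 12. In rolipram they ran from 1 to 112 with a median of 36, and in BC11-38 from 1 to 98 with a median of 47. Bleached vehicle was thus the library with many weak members: 27 of its 151 cones had 1 or 2 Opn1mw UMIs and a further 33 had 3 to 9, against 9 and 16 of 128 cones in unbleached vehicle. In rolipram and BC11-38, 164 of 187 and 117 of 141 cones had at least 10. Many weak members of the drug libraries carried markers of other cell types, by the cut given below. Of cells with 1 or 2 Opn1mw UMIs, 6 of 9, 23 of 27, 7 of 13 and 1 of 12 were free of such markers. With 3 to 9 UMIs these were 15 of 16, 27 of 33, 5 of 10 and 11 of 12.

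**Figure D1:**
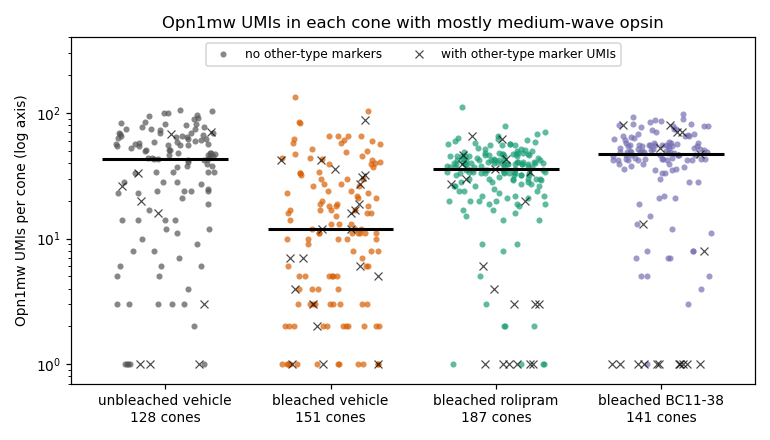
Opn1mw UMIs (log axis) in each medium-wave cone of the 4 libraries, where each symbol is 1 cell, a cross marks a cell that also held UMIs of Müller glia, bipolar or amacrine markers, and the line is the median. Cells of the bleached vehicle library spread from 1 to 133 UMIs around a median of 12, below the medians of 43, 36 and 47 in the other 3 libraries.

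Short-wave opsin was present in a part of the medium-wave cones. An Opn1sw UMI was found in 38.3% (29.8 to 47.3), 24.5% (17.9 to 32.2), 44.9% (37.7 to 52.3) and 42.6% (34.3 to 51.2) of them. Cells with Opn1mw as their only opsin made up 61.7%, 75.5%, 55.1% and 57.4%. With every cell thinned to 2000 UMIs, which left out 9, 14, 11 and 15 shallower cells, an Opn1sw UMI remained in 28.6%, 13.9%, 34.1% and 27.8%. Bleached vehicle had the lowest share both before and after thinning. Cells with rod genes, at the lower depths given above, had an Opn1sw UMI in 3.38%, 2.87%, 4.61% and 6.43% of cells. The part of stray Opn1sw transcripts in the medium-wave cones was not tested. Opn1mw was in turn found in 78.7%, 56.7%, 79.7% and 79.3% of the short-wave cones. Cells close to the division were few: 3, 9, 10 and 8 members had a share from 0.5 to under 0.6, with median counts of 23, 3, 33 and 46 Opn1mw UMIs and 23, 3, 28 and 37.5 Opn1sw UMIs. Just outside, 7, 4, 9 and 16 cones had a share from 0.4 to under 0.5, with median counts of 54, 8.5, 34 and 35.5 Opn1mw UMIs and 67, 11, 43 and 48.5 Opn1sw UMIs.

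Some members carried transcripts of other cell types. Summed markers of Müller glia, the radial glia of the retina, stood at 95.4, 1902, 236 and 158 CPM in medium-wave cones, with 10, 12, 12 and 12 of 12 markers seen. Bipolar markers summed to 428, 423, 938 and 1407 CPM and amacrine markers to 607, 162, 168 and 340 CPM. Astrocyte markers summed to 3.08, 243, 4.68 and 0 CPM, with S100b and Pax2 at 0 in bleached vehicle. Rod markers summed to 13801, 9067, 14161 and 14689 CPM. The microglial genes C1qa, C1qc, Cx3cr1, P2ry12, Tyrobp and Trem2 were at 0 in all 4. Cells with at least 5 Müller, 2 bipolar or 2 amacrine marker UMIs numbered 10, 22, 21 and 19. Without them, a selection made after seeing the data, the Müller sums were 85.3, 119, 121 and 94.8 CPM, the bipolar sums 139, 156, 208 and 254 CPM and the amacrine sums 68.2, 66.4, 55.1 and 71.1 CPM. The main counts are therefore also given without these cells. The libraries also differed in the sex of the mice: Xist, the transcript that silences an X chromosome in females, was seen in 48.4%, 0%, 49.7% and 45.4% of medium-wave cones, where 0 of 151 allows up to 2.41%. No barcode was shared between medium-wave cones of different libraries.

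Medium-wave cones were next set against the short-wave cones of the same library, which answers which other genes go with the opsin choice. Of 10203 genes tested with limma across the 4 libraries, with library as a block and Benjamini-Hochberg adjustment, 56 (0.549%) were higher in medium-wave cones and 72 (0.706%) were higher in short-wave cones at an adjusted p under 0.05. Both opsins and the genes of the cone rule are not among these counts. All 128 genes had the same sign in 4 of 4 libraries, and the median over all genes tested was 0.00 on the log2 scale. Of the 56, 51 were protein coding and 23 differed by at least 2-fold. Of the 72, 63 were protein coding and 40 differed by at least 2-fold. The libraries are differently treated pools of mice, so the spread behind each p is that between these 4 pools. The count depended on which libraries entered: it was 82 and 149 without BC11-38, 24 and 37 without rolipram, 51 and 54 without bleached vehicle, and 18 and 28 without unbleached vehicle.

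Genes around Nr2f2 led the medium-wave side. Nr2f2 encodes a nuclear receptor of the dorsal retina. It stood at 71.8, 76.0, 94.7 and 80.6 CPM in medium-wave cones and at 29.8, 1.14, 8.13 and 18.4 CPM in short-wave cones. The 2 classes did not overlap, and the difference was 2.97 ± 0.43 on the log2(CPM + 1) scale (SE, n = 4 libraries, adjusted p = 0.00214, limma). Gm44532, an RNA gene 86.487 kb from the start of Nr2f2, stood at 62.6, 26.0, 135 and 116 CPM against 2.71, 2.29, 7.22 and 7.51 CPM, a difference of 3.74 ± 0.25 (limma adjusted p = 7.39e-07). B130024G19Rik differed by 3.07 ± 0.39 (limma adjusted p = 0.00063) and Gm44812 by 3.04 ± 0.45 (limma adjusted p = 0.00214).

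These 4 genes lie together on chromosome 7 in the GENCODE vM21 annotation of GRCm38. Nr2f2 is at chr7:70351944-70366735 and Gm44532 at chr7:70420915-70453222, both on the minus strand. B130024G19Rik at chr7:70364910-70489972 and Gm44812 at chr7:70574834-70585751 are on the plus strand. Within 500 kb of Nr2f2, a window set after its values were seen, 7 genes had a UMI, 4 could be tested and those 4 were all higher in medium-wave cones. Summed over the libraries, medium-wave cones held 301 UMIs of Gm44532 against 24 in short-wave cones, 89 against 8 of B130024G19Rik, 63 against 7 of Gm44812 and 298 against 70 of Nr2f2. B130024G19Rik overlaps the start of Nr2f2 and all of Gm44532 on the opposite strand, and whether counting used strand is not given in the sources used here, so reads of these genes may not be separable.

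Smug1, a uracil-DNA glycosylase of base excision repair, gave the smallest p on the medium-wave side. It stood at 198, 138, 323 and 293 CPM in medium-wave cones and at 55.1, 26.3, 70.4 and 72.3 CPM in short-wave cones. No short-wave value reached the lowest medium-wave value, and the difference was 2.09 ± 0.11 (limma adjusted p = 7.84e-08). The other genes of this side with the largest differences were Myocd at 2.98 ± 0.51, a transcriptional coactivator, Alpk2 at 2.24 ± 0.44, a kinase, and 4430402I18Rik at 2.18 ± 0.48. D430019H16Rik at 1.83 ± 0.33, Tbc1d2 at 1.65 ± 0.31, Samd12 at 1.60 ± 0.35 and Osbpl3 at 1.58 ± 0.26 followed. Alpk2, 4430402I18Rik and Samd12 missed the threshold whichever of the 4 libraries was left out, Myocd and Tbc1d2 without rolipram or without unbleached vehicle, and D430019H16Rik and Osbpl3 without unbleached vehicle. The neighbours on chromosome 11 Senp3, Tnfsf13 and Tnfsf12, named after their values were seen, were also higher: Senp3 by 0.71, Tnfsf13 by 0.50 and Tnfsf12 by 0.41 (limma adjusted p = 0.0467, 0.0487 and 0.0263).

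On the short-wave side En2, a homeobox transcription factor, differed most. It stood at 3.08, 4.81, 0 and 0 CPM in medium-wave cones and at 46.0, 54.9, 61.4 and 43.0 CPM in short-wave cones, a difference of -4.55 ± 0.43 (limma adjusted p = 5.05e-05). Wscd2 was at 2.05, 1.92, 5.85 and 5.93 CPM against 40.6, 30.9, 52.4 and 36.9 CPM, a difference of -3.16 ± 0.30 (limma adjusted p = 4.87e-05). Ccdc136, a neighbour of Opn1sw on chromosome 6, was at 182, 171, 270 and 220 CPM against 1126, 1025, 1463 and 1199 CPM, a difference of -2.52 ± 0.08 (limma adjusted p = 4.13e-11). For each of these 3 genes every short-wave value lay above every medium-wave value. Epha8, an ephrin receptor, differed by -3.38 ± 0.52, and Dnaic1, a dynein chain of motile cilia, by -3.02 ± 0.34. Syndig1l, Gm10419, Cacna1h, a T-type calcium channel, 5430419D17Rik, Mast4, Elfn2 and Selenbp1 differed by -2.58 to -2.01. Mast4 missed the threshold without BC11-38, without rolipram or without unbleached vehicle, and Selenbp1 without either of the last 2.

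**Figure D2:**
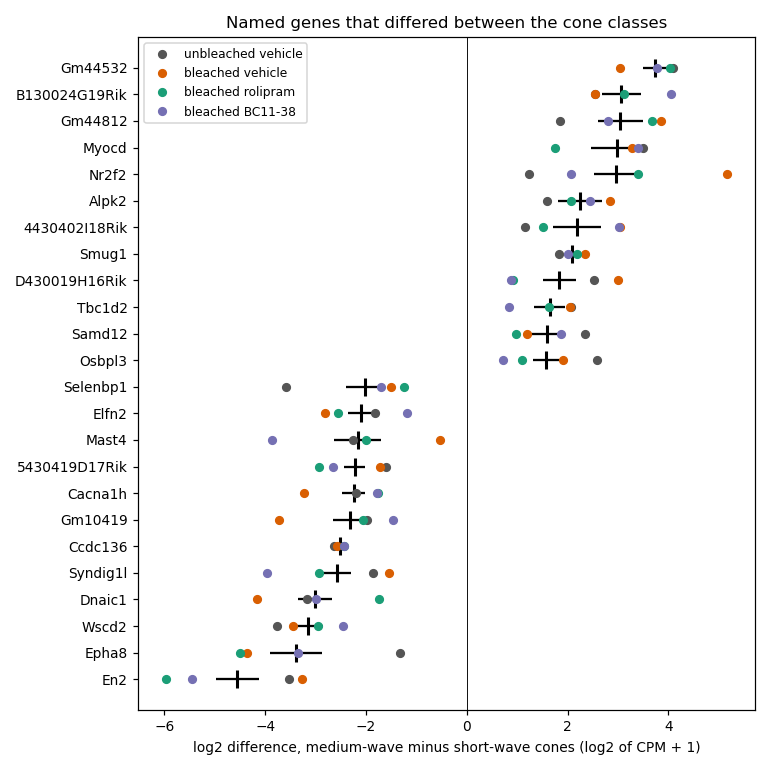
Difference between medium-wave and short-wave cones (log2 of CPM + 1) for the 24 named genes, with 1 point per library and the limma estimate with its standard error. The 12 genes above 0 and the 12 below 0 keep their side in all 4 libraries, from 3.74 for Gm44532 to -4.55 for En2.

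The regulators known for the opsin choice gave mixed values. Vax2, a homeobox gene of the ventral retina, was lower in medium-wave cones by 1.82 ± 0.26 (limma adjusted p = 0.00214), as was its overlapping antisense gene Vax2os at -1.16. Rxrg, a partner receptor of Thrb, was lower at -0.69 (limma adjusted p = 0.0439). Thrb itself differed by 0.31 and did not pass (limma adjusted p = 0.106), nor did Tbx2, a dorsal T-box factor, at -1.02 (limma adjusted p = 0.295). Much of the Tbx2 signal lay in cells with other-type markers. Without them it went from 43.8 to 8.38 CPM in cones with Opn1sw alone. In cones with Opn1mw alone it went from 9.92 to 1.04 CPM. Samd7, a repressor in photoreceptors, was higher in medium-wave cones by 1.41 ± 0.15 (limma adjusted p = 0.000142). Neurod1, a photoreceptor transcription factor, was higher by 0.41 and Otx2, a photoreceptor homeobox factor, lower at -0.55. Of 18 photoreceptor transcription factors tested, 3 were higher in medium-wave cones and 2 in short-wave cones.

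Lists of light detection and upkeep are read beside the 0.549% and 0.706% of all genes tested, and at those shares a short list with no call stands near the background. Of 15 phototransduction genes outside the rule, Guca1a and Guca1b, activators of guanylate cyclase, were lower in medium-wave cones at -0.59 and -0.70 (limma adjusted p = 0.00063 and 0.00212). Of 17 outer segment genes, Impg2 and Rp1l1 were higher by 0.41 and 0.38. Of 22 synapse genes 1 was higher in short-wave cones. None of 18 injury-linked, 16 unfolded protein, 13 mitochondrially encoded or 21 glycolysis genes passed in limma. Around Opn1sw 2 of 9 tested genes within 500 kb differed, Ccdc136 and Calu at -0.92, where Calu overlaps the end of Opn1sw on the other strand. Around Opn1mw none of 23 passed. Among markers of other types, 1 of 11 Müller genes (Rlbp1), 2 of 10 bipolar genes (Cabp5 at -1.34 and Scgn at -1.56) and 0 of 9 amacrine genes were called lower in medium-wave cones and none higher, with medians of -0.69, -0.88 and -0.50. Their summed level was not lower in medium-wave cones of every library: Müller markers stood at 1902 against 1495 CPM in bleached vehicle, and in BC11-38 bipolar markers stood at 1407 against 1378 CPM and amacrine markers at 340 against 272 CPM. Their part in the class differences was not tested beyond the fit without such cells. All 24 named genes also passed in limma without cells with other-type markers.

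Levels of genes named above are given next by opsin share in finer steps. All but Thrb were named for their difference between the classes split at 0.5. A difference across that share was thus set in advance. From Opn1sw alone, through shares under 0.1, 0.1 to under 0.5, 0.5 to under 0.9 and 0.9 to under 1, to Opn1mw alone, the 190, 157, 432, 132, 98 and 377 cones held Gm44532 at 4.29, 2.21, 6.84, 58.1, 94.6 and 85.4 CPM. Smug1 stood at 36.9, 30.9, 79.3, 184, 287 and 233 CPM. The largest step of Gm44532 was that into the medium-wave class, and Smug1 was higher at each step from the second to the fifth. Nr2f2 was less even at the low end, with 38.6, 2.21, 9.26, 41.7, 76.4 and 94.5 CPM, and its first value was 13.4 CPM without cells with other-type markers. Ccdc136 was at 1041, 1457, 1203, 547, 216 and 90.1 CPM. En2 was at 38.6, 75.1, 47.1, 10.1, 0 and 0 CPM. Members with a share of 0.5 to under 0.9 thus lay between the extremes for Ccdc136 and En2. The group with Opn1sw alone rests most on cells with other-type markers: without them 116 of its 190 cones remained, with En2 at 60.3, Gm44532 at 8.38 and Ccdc136 at 1506 CPM. Thrb stood apart, with 102 CPM in cones with Opn1sw alone and 395, 600, 543, 624 and 463 CPM in the rest. These are descriptions over cells pooled across libraries.

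**Figure D3:**
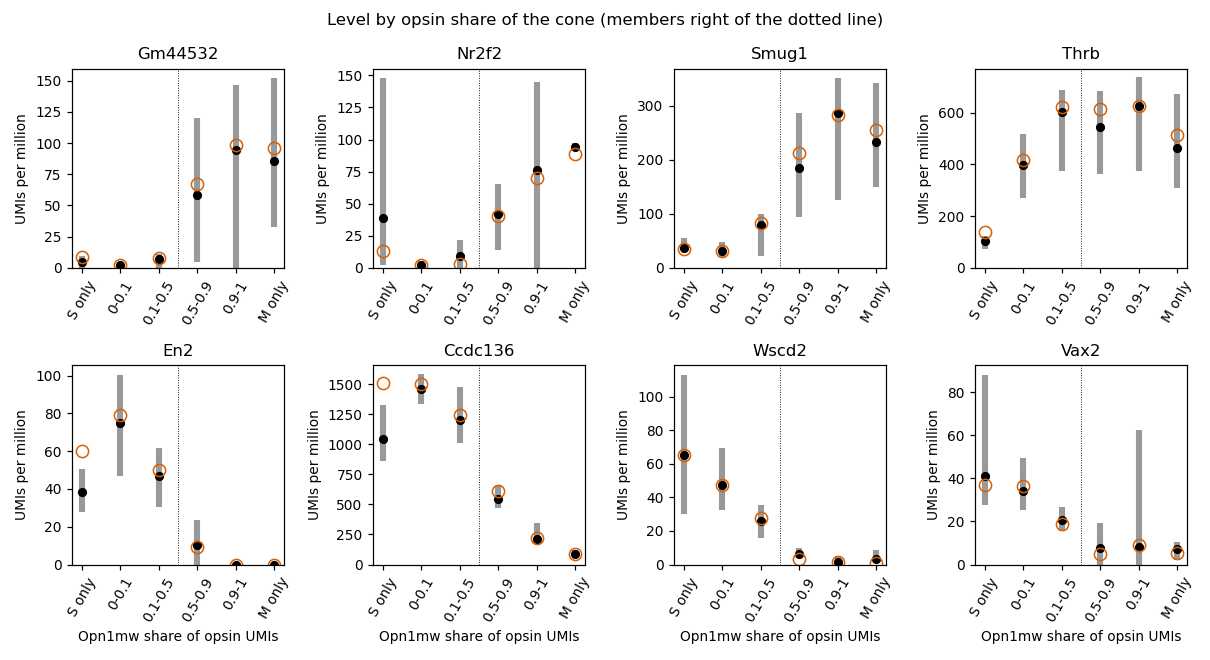
CPM of 8 genes in cones grouped by the Opn1mw share of their opsin UMIs, from Opn1sw alone to Opn1mw alone, with the level over all libraries in black, a bar from the lowest to the highest library and open symbols for cells without other-type markers. Gm44532 and Smug1 are high in the groups of 0.5 and above, and Ccdc136, En2 and Wscd2 are high below 0.5. Thrb is low in the group with Opn1sw alone. All genes but Thrb and Vax2 were named for their difference between the classes split at 0.5.

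Bleached vehicle was then compared with unbleached vehicle within the medium-wave cones, which asks what these cells expressed 1 day after light. With 1 library a group there is no test, and sex differed between these libraries, as given above. A gene was counted when both libraries together held at least 100 of its UMIs, and called at 1.5-fold. Of 3519 genes counted, 283 were called higher (8.04%) and 174 lower (4.94%) after light, with a median of 0.01 over all of them on the log2 scale. Without cells with other-type markers the counts were 191 of 2981 (6.41%) and 102 (3.42%). A gene that reaches 100 UMIs only through the library where it is high had to differ, so counts over short lists below describe these libraries and nothing more.

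Among the genes named as higher after light were a secreted protein, a receptor and a growth factor. Tnfrsf12a, the receptor for the cytokine encoded by Tnfsf12, held 39, 245, 1 and 7 UMIs in the 4 libraries, or 40.0, 236, 1.17 and 8.30 CPM. Bleached vehicle was 5.90-fold above unbleached (95% counting interval 4.19 to 8.49), and 28.5% of its medium-wave cones had a UMI against 18.0%. Fgf2, basic fibroblast growth factor, stood at 52.3, 219, 12.9 and 0 CPM, 4.20-fold higher after light (3.09 to 5.80), with a UMI in 51.0% of cones against 18.8%. Csn3, kappa casein, stood at 11.3, 200, 0 and 0 CPM, 17.7-fold higher (9.71 to 36.1). Csn3 was carried by few cells, 17 of 151 in bleached vehicle, whereas Fgf2 was spread over 77.

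Several genes with other roles were higher too. Rbm17, a splicing factor, stood at 163, 494, 51.5 and 52.1 CPM, 3.03-fold higher after light (2.53 to 3.64). Ptprn, a membrane protein of dense-core vesicles, stood at 161, 471, 76.0 and 69.9 CPM, 2.92-fold higher (2.44 to 3.52). The GABA receptor subunit Gabrg3 was 4.73-fold (3.01 to 7.76) and Lrrc2 4.33-fold (2.68 to 7.32) higher. In short-wave cones, side by side and with no test of a difference, the ratios were 3.36 for Tnfrsf12a, 2.73 for Fgf2, 2.67 for Rbm17 and 3.03 for Ptprn. When only cones with Y-linked and no Xist UMIs entered, the log2 ratio of Rbm17 went from 1.60 to 1.01, that of Csn3 from 4.09 to 6.19 and that of Fgf2 from 2.06 to 1.5.

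Lcn2, a secreted lipid carrier of reactive glia, had the largest ratio of the genes named as higher after light, 36.6 (15.4 to 114). However, 191 of its 195 UMIs in bleached vehicle lay in the 8 medium-wave cones with at least 5 Müller marker UMIs. Without cells with other-type markers its ratio was 0.84 (0.123 to 4.98). The same 8 cells held 2134 of 2224 Mt1 UMIs, 330 of 379 Cebpd UMIs and 489 of 719 Jun UMIs. Mt1, a metallothionein, remained 3.17-fold higher without them and the other excluded cells, and Jun 1.23-fold.

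Injury and early response genes follow the same division. Of 34 injury-linked genes 12 were counted, 10 of them called higher and 0 lower, with a median log2 ratio of 2.12. Without cells with other-type markers 5 of 8 were called higher, with a median of 1.38: Tnfrsf12a, Fgf2, Socs3, Gadd45a and Mt1. Over all genes counted 8.04% were called higher and 4.94% lower, and 6.41% and 3.42% without such cells. Socs3, a feedback inhibitor of cytokine signalling, stood at 41.0, 186, 16.4 and 8.30 CPM, 4.53-fold higher and 3.51-fold in the smaller set. Of 14 immediate early genes counted, 8 were called higher and 0 lower, but in the smaller set 2 of 11, Junb and Atf3. Atf3, a stress-induced transcription factor, stood at 35.9, 193, 14.0 and 5.93 CPM, 5.39-fold higher (3.75 to 7.95) and 3.71-fold in the smaller set. Atf4, which drives the integrated stress response, was 1.57-fold higher (1.35 to 1.82) and Herpud1, of protein degradation at the endoplasmic reticulum, 1.97-fold, whereas the chaperone Hspa5 was 1.63-fold lower.

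Part of the light detection genes were lower after light. Of 14 counted phototransduction genes outside the rule, 5 were called lower (Rgs9, Rgs9bp, Gnb5, Rcvrn and Pdc) and 0 higher, with and without cells with other-type markers. The median of the 14 was -0.38. Over all genes counted 4.94% were called lower and 8.04% higher. The rule's own genes are given below as a description. Pdc, phosducin, which binds transducin subunits, stood at 3034, 1335, 3902 and 4192 CPM, 2.27-fold lower (2.13 to 2.42). Recoverin, Rcvrn, stood at 2555, 1411, 2621 and 3116 CPM, 1.81-fold lower (1.70 to 1.93). Rgs9, which speeds shut-off of transducin, was 1.62-fold lower (1.41 to 1.87). Of the rule's own genes, Gnat2 was 2.01-fold, Cngb3 2.05-fold and Arr3 1.72-fold lower, whereas Pde6c was 1.25-fold higher and Gnb3 1.05-fold lower. Detection of these rule genes chose the cells, so their ratios are not read further. All 8 cone genes of the rule were seen in 46.1% of medium-wave cones of unbleached vehicle and 18.5% of those of bleached vehicle. In short-wave cones Pdc was 1.35-fold, Gnat2 1.20-fold and Arr3 1.38-fold lower, and the difference between the classes was not tested. Among medium-wave cones with at least 10 Opn1mw UMIs, a set chosen after seeing the data, the log2 ratio of Pdc was -0.97 against -1.18.

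Other genes named as lower were Pde6g, an inhibitory phosphodiesterase subunit known from rods, at 1646, 777, 2336 and 2723 CPM and 2.12-fold lower (1.95 to 2.31), and Prcd, a disc protein, 2.04-fold lower (1.79 to 2.33). Rod markers as a list were also lowest in bleached vehicle, as given above, and their part in the Pde6g value was not tested. The inositol phosphate kinase Ip6k2 was 2.34-fold lower (1.85 to 2.98), the phosphatase subunit Ppp2r5c 2.36-fold (1.85 to 3.03) and Gm42697, an antisense gene, 2.71-fold (1.83 to 4.07). Gzmm, granzyme M, stood at 436, 217, 771 and 845 CPM, 2.01-fold lower (1.71 to 2.38). Among cones with Y-linked and no Xist UMIs its log2 ratio was -0.37 against -1.01, which is under 1.5-fold.

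Part of the mitochondrially encoded genes were lower too. Of 13 mitochondrially encoded genes 8 were called lower and 0 higher, with a median log2 ratio of -0.61, and 5 were called lower without cells with other-type markers. mt-Nd5, a subunit of complex I, was 1.89-fold lower (1.75 to 2.03) and mt-Co1, of complex IV, 1.57-fold lower (1.53 to 1.61). The median mitochondrial share of UMIs per cell was 10.4%, 7.7%, 8.5% and 10.0%. Ckmt1, mitochondrial creatine kinase, was 2.04-fold lower (1.65 to 2.54) and hexokinase 2, Hk2, 1.58-fold lower. Of 19 cone synapse genes 4 were called lower, Cacna1f, Rims2, Cplx3 and Lrit3, and Lrit3 alone without cells with other-type markers. Among transcription factors Thrb was 1.36-fold lower (1.18 to 1.58), and Nr2f2 stood at 71.8, 76.0, 94.7 and 80.6 CPM with a ratio of 1.06 (0.758 to 1.48). No gene of 9 counted in the circadian clock list or of 6 phosphodiesterases and cyclases was called at 1.5-fold, beside 8.04% higher and 4.94% lower over all genes counted. Without cells with other-type markers 1 of 8 clock genes was called lower, Dbp at 1.62-fold.

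**Figure D4:**
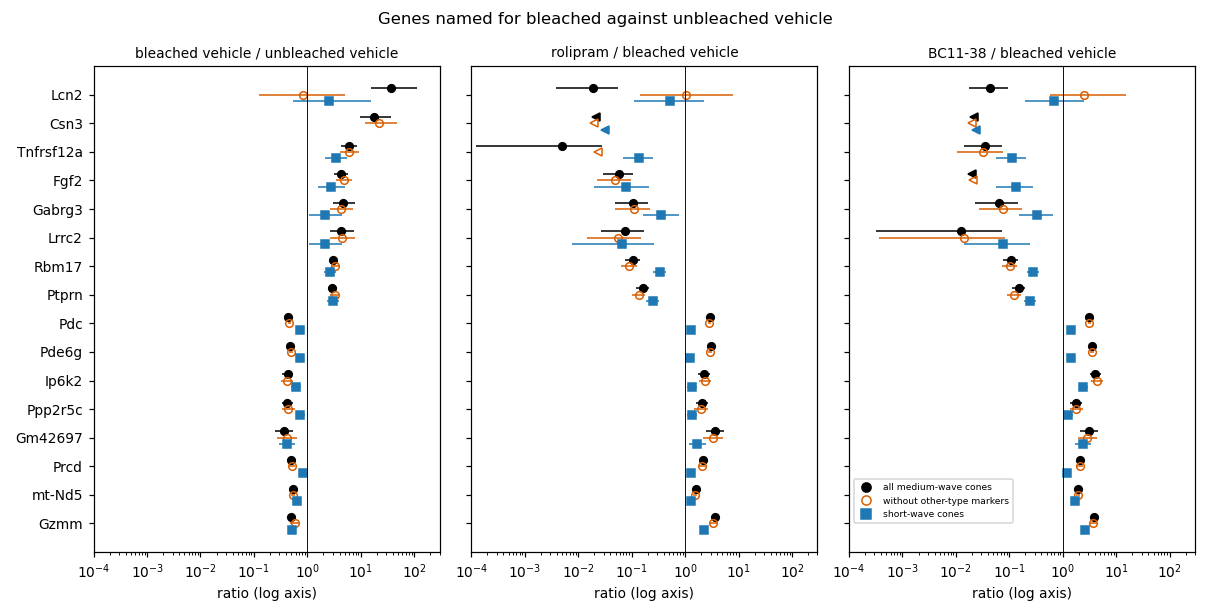
Ratios (log axis) of the 16 genes named for bleached against unbleached vehicle, in 3 comparisons, for all medium-wave cones, for those without other-type markers and for short-wave cones, with 95% counting intervals and triangles for upper bounds where the drug library had 0 UMIs (Csn3 has no short-wave symbol after light, with 0 UMIs in unbleached vehicle). Lcn2 goes from 36.6 to 0.84 without cells with other-type markers, and Tnfrsf12a and Fgf2 are 5.90 and 4.20 after light and below 1 in both drug comparisons.

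Rolipram was compared with bleached vehicle next, and shares that library with the comparison above, so the values stand side by side and do not support each other. Of 3385 genes counted, 369 were called higher (10.9%) and 397 lower (11.7%) with rolipram, with a median log2 ratio of 0.00. Without cells with other-type markers these were 252 of 2789 (9.04%) and 280 (10.0%). Sex also differed between these libraries, as given above.

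Of the genes named as lower with rolipram, Fgf2, Tnfrsf12a, Csn3, Rbm17, Spsb2 and Map3k8 also lay below the unbleached level. They were chosen for low rolipram values against bleached vehicle, so this is partly set by the choice. Fgf2 was 17.1-fold lower than in bleached vehicle (9.35 to 34.6), and its 12.9 CPM stood under the 52.3 CPM of unbleached vehicle. Tnfrsf12a had 1 UMI, 202-fold lower (35.8 to 7995), and Csn3 had none and was at least 57.0-fold lower, with 3 counts taken as the limit of a library at 0. A UMI of Tnfrsf12a was seen in 0.535% of cones against 28.5%. Rbm17 was 9.59-fold lower (7.04 to 13.4) and Ptprn 6.19-fold (4.77 to 8.15). Spsb2, a SOCS-box protein, held 52, 125, 5 and 3 UMIs and was 20.6-fold lower (8.58 to 64.5), and Map3k8, a kinase of inflammatory signalling, held 43, 108, 7 and 4 UMIs and was 12.7-fold lower (5.96 to 32.3). Gm16062, an antisense gene, was 12.6-fold lower (5.90 to 32.0). Lcn2 was 53.5-fold lower (18.0 to 262), and without cells with other-type markers its ratio was 1.05 (0.141 to 7.87).

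Genes named as higher with rolipram included Pde6g and Pdc of phototransduction and an RNA of the Nr2f2 region. Gm44532 stood at 26.0 CPM in bleached vehicle and at 135 CPM with rolipram, 5.18-fold higher (3.38 to 8.19). Adrb1, the beta-1 adrenergic receptor, stood at 426, 212, 781 and 646 CPM, 3.69-fold higher (3.16 to 4.32). Lhx4, a homeobox factor, held 58, 35, 118 and 100 UMIs and was 4.10-fold higher (2.79 to 6.16). All 3 genes were lowest in bleached vehicle, which is partly set by their choice for high rolipram values against that library. Gzmm was 3.56-fold (3.06 to 4.16), Pde6g 3.01-fold (2.77 to 3.27), Pdc 2.92-fold (2.74 to 3.11) and Gm42697 3.61-fold (2.47 to 5.40) higher. In short-wave cones Pde6g was 1.24-fold and Pdc 1.26-fold higher, with no test of the difference. Rod markers, Pde6g among them, summed to 9067 CPM in bleached vehicle and 14161 CPM with rolipram in medium-wave cones. In cells failing the cone rule they summed to 5552 and 10287 CPM, and their part in these values was not tested.

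By list, 7 of 14 phototransduction genes outside the rule were called higher with rolipram, 5 without cells with other-type markers, and 0 lower, with a median of 0.54. Of the rule's genes, given as a description, Gnat2 was 3.15-fold and Arr3 2.24-fold higher, while Pde6c was 1.33-fold lower. Outside it Rgs9 was 2.18-fold and Rcvrn 1.86-fold higher. Of 11 injury-linked genes counted 11 were called lower, and 5 of 6 without cells with other-type markers: Tnfrsf12a, Fgf2, Socs3, Stat3 and Mdm2. Immediate early genes were called lower in 10 of 14 and in 6 of 11, with Atf3 13.8-fold (7.72 to 27.1) and Junb 3.88-fold (3.31 to 4.56) lower. Of 10 unfolded protein and integrated stress genes 6 were called lower, among them Ddit3, 2.61-fold, Atf4, 1.86-fold, and Herpud1, 3.99-fold. Thrb was 2.06-fold higher (1.80 to 2.37) and Neurod1 1.74-fold lower (1.63 to 1.86). Synapse genes were called higher in 6 of 19, clock genes in 4 of 9 and mitochondrially encoded genes in 4 of 13. Without cells with other-type markers these were 5 of 19, 3 of 8 and 4 of 13, with mt-Nd3 called lower. Over all genes counted 10.9% were called higher and 11.7% lower, and 9.04% and 10.0% without such cells.

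BC11-38 against bleached vehicle used the same control library again, and sex differed between these libraries too, as given above. Of 3328 genes counted, 332 were called higher (9.98%) and 407 lower (12.2%), with a median log2 ratio of -0.03. Without cells with other-type markers these were 239 of 2719 (8.79%) and 307 (11.3%).

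Fgf2 and Csn3 had 0 UMIs in the 141 medium-wave cones of this library, at least 61.7-fold and at least 56.3-fold lower than in bleached vehicle. Tnfrsf12a was 28.4-fold lower (13.6 to 71.4), with a UMI in 4.26% of cones. Spsb2 was 33.8-fold lower (11.3 to 166), Map3k8 21.9-fold (8.32 to 81.9), Gabrg3 15.7-fold (7.0 to 43.7) and Tcirg1, a subunit of the vacuolar proton pump, 29.2-fold (9.74 to 144). Rbm17 was 9.47-fold lower. In short-wave cones of this library Fgf2 was 7.64-fold and Tnfrsf12a 8.90-fold lower. Lcn2 was 22.6-fold lower (10.8 to 57.0), and without cells with other-type markers its ratio was 2.55 (0.582 to 15.3), on 3 and 7 UMIs.

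Among the genes higher with BC11-38, Ip6k2 stood at 237, 101, 228 and 412 CPM, 4.08-fold higher (3.27 to 5.13). Gem, a small GTPase, held 66, 40, 116 and 141 UMIs and was 4.34-fold higher (3.04 to 6.33). Gzmm was 3.90-fold (3.35 to 4.55), Pde6g 3.51-fold (3.23 to 3.80), Pdc 3.14-fold (2.95 to 3.34) and Gm44532 4.47-fold (2.89 to 7.12) higher. For each of these 6 genes bleached vehicle held the lowest level of the 4 libraries. They were chosen for high BC11-38 values against bleached vehicle, so this is partly set by the choice. Ip6k2, Gzmm, Pde6g and Pdc were also named above for low values in bleached vehicle against unbleached vehicle. Rod markers, Pde6g among them, summed to 14689 CPM with BC11-38 against 9067 CPM in bleached vehicle, and their part was not tested. Cabp5, a calcium-binding protein of bipolar cells, was 4.39-fold higher (3.17 to 6.18) and 2.68-fold without cells with other-type markers, in a library whose bipolar marker sum was 1407 CPM against 423 CPM.

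By list, 7 of 14 phototransduction genes outside the rule were called higher, 5 without cells with other-type markers, and 1 lower in both, Slc24a2, a sodium-calcium exchanger, at 1.63-fold, with a median of 0.56. Of the rule's genes, given as a description, Gnat2 was 3.74-fold and Arr3 2.87-fold higher and Pde6c 1.64-fold lower (1.5 to 1.80). Injury-linked genes were called lower in 11 of 11 counted and in 5 of 6 without cells with other-type markers, with Socs3 22.4-fold (10.7 to 56.4) and Stat3 4.18-fold lower. Immediate early genes were called lower in 10 of 13 and in 5 of 11. Mitochondrially encoded genes were called higher in 6 of 13, and glycolysis and energy genes in 7 of 19 with 1 lower. Among those higher was Ckmt1 at 2.95-fold (2.40 to 3.65). Without cells with other-type markers these counts were 4 of 13 and 7 of 18 with 1 lower. Over all genes counted 9.98% were called higher and 12.2% lower, and 8.79% and 11.3% without such cells. Thrb was 2.01-fold higher (1.75 to 2.31) and Neurod1 1.81-fold lower (1.69 to 1.93). H2-D1, a class I antigen-presenting protein, was 5.57-fold lower (3.73 to 8.60). Abca4 transcripts, whose protein these mice lack, were counted at 35, 38, 52 and 67 UMIs. Counts of 3′ ends do not check a genotype that alters another part of the gene.

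**Figure D5:**
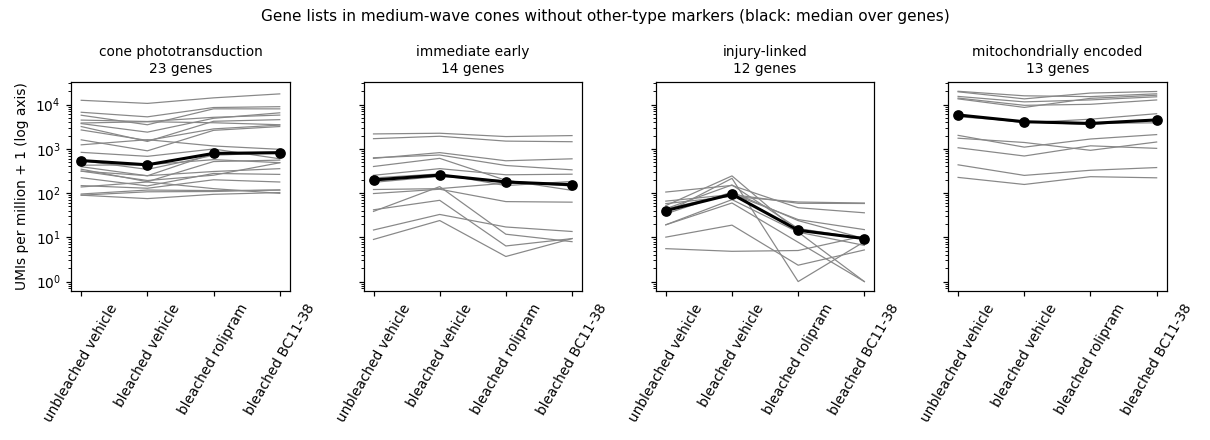
CPM + 1 (log axis) of each counted gene of 4 lists in medium-wave cones without other-type markers, by library, with the median in black. Genes are those counted for bleached against unbleached vehicle over all medium-wave cones. Of the 12 injury-linked and 14 immediate early genes so counted, 8 and 11 were also counted without cells with other-type markers. The injury-linked median is highest in bleached vehicle and lower in both drug libraries than in unbleached vehicle. The phototransduction median is lowest in bleached vehicle. Of its 23 genes only 14 lie outside the cone rule and the opsins, so this median rests partly on genes that chose the cells. Every comparison included bleached vehicle, so a gene could be counted through high UMIs in that library alone. The high injury-linked median there, and the lower ones elsewhere, are thus partly set by this choice of genes.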

How the data were processed

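In the deposited matrix each value was the natural log of 1 added to a gene's UMIs scaled to 10000 in the cell, per the file headers and the values themselves. The submitters' processing notes name Cell Ranger 6.0.1, Seurat 3.2.2 and mm10 but not what each was used for. Strand use, intronic reads and the authors' filters are not given in the sources used. Cells had at least 497 genes and at most 20.0% mitochondrial UMIs. The fifth group of the design text was not analysed here. Dividing each cell's back-transformed values by their smallest step gave whole UMIs for 100% of values (tolerance 0.001), 140410160 in all and 28983626 to 44386442 per library.

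The design had assumed counts, and recovered UMIs were used as such. UMIs were summed per cone class and library. Cone classes were compared with limma 3.58.1 in R 4.3.3 on log2 CPM with a prior of 1, for genes with at least 5 CPM in at least 4 of 8 sums, with library as a block. Ratios between libraries have exact conditional Poisson 95% intervals, which cover counting error only, from scipy 1.17.1. Named genes were the 12 with the largest difference in each direction between classes, and between libraries the 8 in each direction whose interval lay farthest from 1. Genes of the cone rule, Xist, Tsix, Y-linked genes and genes higher in cells that are not cones were left out of the latter. List members are named by level or ratio, or where a list's count is spelled out. No doublet caller was run. Cells with markers of other types were left out in an alternative instead. The limma and ratio steps were tested on simulated data. The cone rule, gene lists and tests were chosen with earlier results of these data known. Some items met by the naming rules are not reported here.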

Additional observations from a re-analysis of the deposited data

Results flagged for a closer look

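Cells with at least 6 of the 8 cone genes but no opsin UMI, which entered no comparison, made up 0.279% of cells in bleached vehicle (19 cells, exact 95% binomial interval 0.168 to 0.435). They made up 0.105% in unbleached vehicle (6 cells, 0.0387 to 0.229), and these intervals overlap. Rolipram had 1 such cell (0.0127%), and BC11-38 had 0, with an exact upper limit of 0.0600%. The bleached vehicle share stood out because it lay above the control library in cells that the opsin share left aside. In those 19 cells the median depth was 5899 UMIs, Arr3 stood at 769 CPM and Pde6h at 2427 CPM. The bipolar gene Pcp2 stood at 655 CPM and the Müller gene Glul at 160 CPM there. Their part in the share was not tested.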

How the results depend on the processing

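The genes higher in medium-wave cones numbered 56 as reported and 126 with opsin shares of 0.9 or more against 0.1 or less, 97 without cells with other-type markers (added after seeing the data), 102 with limma voom, 9 without the library block and 18 to 82 when each library was left out. The genes higher in short-wave cones numbered 72, and 309, 105, 83, 17 and 28 to 149 under the same changes. Named genes kept their direction in these refits, and 38 of their values, against 273, no longer passed 0.05. For bleached vehicle, 283 higher and 174 lower became 615 and 360 with a minimum of 50 UMIs, 138 and 89 with 200, and 160 and 113 in cones with at least 10 Opn1mw UMIs. Lower genes numbered 106 among cones that had Y-linked but not Xist transcripts and 102 without cells with other-type markers. For rolipram, 369 higher and 397 lower became 660 and 764 with 50 UMIs and 187 and 184 with 200, with 230 higher in the Y-linked set and 248 lower with at least 10 Opn1mw UMIs. For BC11-38, 332 and 407 became 608 and 816 with 50 UMIs, 169 and 199 with 200, and 210 and 246 with at least 10 Opn1mw UMIs. A stricter minimum tests fewer genes, and the other causes were not tested. Among named genes between libraries 482 values stayed within their counting interval and 43 did not, with 3 reversals, all of Lcn2 without cells with other-type markers: log2 ratios of -0.22, 0.065 and 1.21 for bleached vehicle, rolipram and BC11-38. The medium-wave share of cones with an opsin UMI stayed within its interval in each library under the 4 alternatives run, whereas thinning each cone to 2000 UMIs put the share of medium-wave cones with an Opn1sw UMI below its interval in all 4 libraries. Depth limits genes under 100 UMIs, and 1 library per group leaves the spread between mice unknown. No paired analysis was possible because each group had 1 library, as far as conditions are compared; the cone classes were compared within libraries.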
